A study of Homo sapiens with 4 samples.

Results

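MITF, TFEB, TFEC and TFE3 form the MiT/TFE family of transcription factors, and the summits of TBX3-3xHA binding that the deposited annotation names for these 4 genes were examined. Members were all peaks whose deposited gene name was one of the 4, at any distance from the gene. There were 29 such peaks among 32479 in replicate 1 and 41 among 40494 in replicate 2. TBX3 is a T-box transcription factor, and it carried 3 copies of the HA tag in 501mel, an established human melanoma line. The samples were 2 anti-HA chromatin immunoprecipitations (ChIP) labelled as replicates and 2 inputs, which are chromatin without immunoprecipitation and were not analysed here. No treatment, no second condition and no untagged control is among the samples, and the labels do not say how the tagged protein was expressed or whether the replicates were separate cultures. All results are from 1 cell line, and no expression was measured.

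MiT/TFE proteins have a basic helix-loop-helix leucine zipper domain, bind E-box sequences as homodimers or as heterodimers with each other, and control genes of pigment cells and of lysosomes. MITF has several alternative starts, each with its own first exon. The most 3′ of these makes the M isoform of melanocytes, whose promoter responds to cAMP through CREB, the route by which the melanocortin receptor MC1R raises MITF. TFEB and TFE3 are broadly expressed and move to the nucleus when nutrients are scarce, and TFEC is known mainly from myeloid cells.

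The label of a 4-gene family was carried almost wholly by MITF. MITF had 28 summits in replicate 1 and 38 in replicate 2. TFEB had 1 and 2, TFEC had 0 and 1, and TFE3 had 0 in both lists. A summit was said to recur when a summit of the other list lay within 200 bp and each was the other's nearest, and its 2 summits are called a recurring region. By this measure 23 regions of MITF and 1 of TFEB recurred, and both lists gave the same gene name to each. Any summit in either list was named for 41.6% of 19974 protein-coding genes, and a recurring one for 28.6%. A gene with no summit, like TFE3, was therefore common in these lists.

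**Figure D1:**
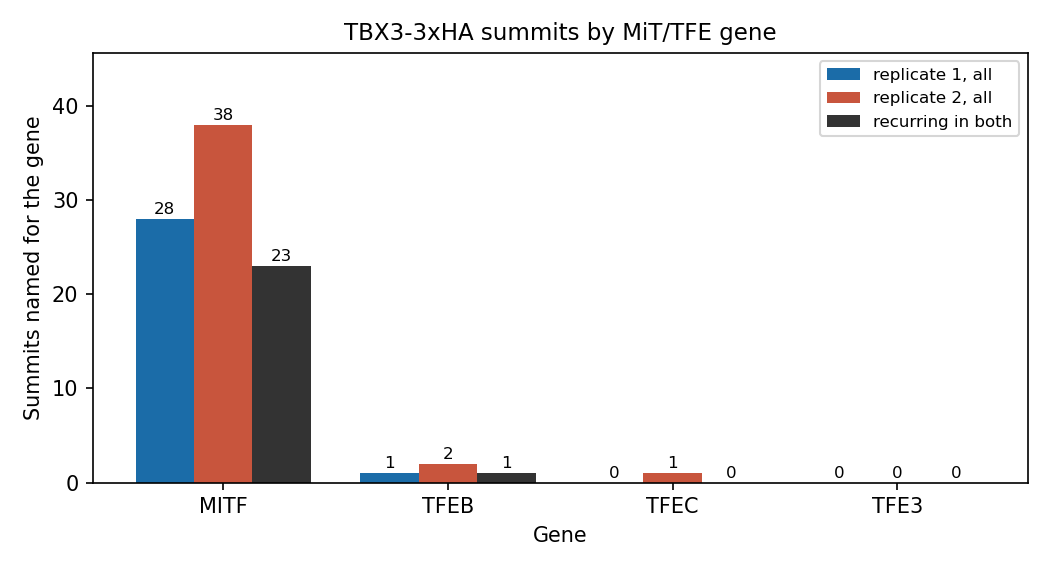
Number of TBX3-3xHA summits named for each MiT/TFE gene (vertical axis) in replicate 1, in replicate 2 and recurring within 200 bp in both. MITF had 28, 38 and 23, and no other gene had more than 2.

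The starts of MITF did not receive summits equally, so their promoters are shown here first, from the RefSeq table of GRCh38.p14. Each run begins 250 bases before the RefSeq start and ends with the first 30 bases of the transcript, on the plus strand of chromosome 3. Capitals mark GGTGTGA, the core of the T-box recognition sequence, TGACGTCA, the cAMP response element bound by CREB, and CTTTGAT, a LEF/TCF sequence. All were searched on both strands. The table holds windows for 3 of the 4 MITF starts used by the deposited annotation.
First start, chr3:69739214-69739493: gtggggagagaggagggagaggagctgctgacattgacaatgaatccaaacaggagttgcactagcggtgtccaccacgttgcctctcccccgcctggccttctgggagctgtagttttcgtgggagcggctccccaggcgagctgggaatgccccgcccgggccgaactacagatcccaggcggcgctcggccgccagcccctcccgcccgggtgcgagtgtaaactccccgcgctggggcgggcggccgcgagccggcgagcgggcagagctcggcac
Start of NM_006722, chr3:69763561-69763840: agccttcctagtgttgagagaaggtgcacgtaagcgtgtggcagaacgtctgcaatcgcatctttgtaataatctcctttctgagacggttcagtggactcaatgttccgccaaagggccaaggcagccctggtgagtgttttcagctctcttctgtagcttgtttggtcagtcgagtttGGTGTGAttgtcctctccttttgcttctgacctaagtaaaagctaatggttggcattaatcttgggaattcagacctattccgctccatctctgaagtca
M start, chr3:69936342-69936621: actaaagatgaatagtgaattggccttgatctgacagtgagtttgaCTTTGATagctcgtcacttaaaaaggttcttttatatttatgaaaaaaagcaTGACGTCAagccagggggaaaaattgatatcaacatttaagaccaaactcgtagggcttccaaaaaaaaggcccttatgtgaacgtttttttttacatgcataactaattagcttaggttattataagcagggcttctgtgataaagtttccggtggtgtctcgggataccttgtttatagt

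The M promoter was the only one of the 9 RefSeq windows of the 4 genes that contained a summit, in either list. Summits at 69936605 in replicate 1 and 69936626 in replicate 2 lay 13 and 34 bp downstream of the RefSeq start, and 5 and 26 bp downstream of the deposited one at 69936600. The printed M sequence ends between these 2 positions. Among all 35116 windows of 300 bases, 404 (1.15%) held a recurring summit. The deposited class of promoter held 1 MITF summit in each list, against 2.33% of all peaks in replicate 1 and 2.12% in replicate 2. The M window held the cAMP response element 152 bases before the start, a sequence present in 1.85% of all windows, and CTTTGAT 204 bases before it, present in 2.62%. It held no GGTGTGA. That sequence occurred once among the 9 windows, 70 bases before the start of NM_006722, where the nearest summit was 12166 bp away in replicate 1 and 12233 bp away in replicate 2. GGTGTGA was present in 3.45% of all windows and in 7.18% of those with a recurring summit, so most occupied windows did not contain these letters.

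The deposited annotation placed the MITF summits at 4 start positions, under 9 transcript identifiers. The identifiers were not a stable way to split the starts: the M start at 69936600 carried NM_001184968 and NM_198158 in replicate 1 but NM_000248 and NM_198178 in replicate 2, at the same position. Start positions were therefore used. The first, at 69739435, was nearest to 8 summits in replicate 1 and 13 in replicate 2, of which 8 recurred. All but 1 of these lay upstream of the gene in each list. The start of NM_006722 at 69763811 was nearest to 2 and 6 summits, and 2 recurred. The start of NM_198177 at 69866224 was nearest to 9 and 10, and 6 recurred. The M start was nearest to 9 in each list, and 7 recurred.

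Of the 4 MITF regions within the top 10% of both lists by score, 3 lay in the 20 kb upstream of the M start. The region with the highest score lay 9984 bp upstream of the M start in replicate 1. Its summits were 69926616 in replicate 1, with a score of 168.1, and 69926604 in replicate 2, with a score of 312.7. It ranked 797 of replicate 1 and 527 of replicate 2, the top 2.45% and 1.30%. Scores are the authors' and were read only within a list. A region 7491 bp upstream, at 69929109 and 69929117, scored 92.2 and 135.4 (top 7.03% and 5.65%). Another, 16326 bp upstream at 69920274 and 69920287, scored 117.7 and 143.6 (top 4.74% and 5.21%) and lay in an LTR13 element, the long terminal repeat of an endogenous retrovirus.

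A weaker region between them and the start, at 69930431 and 69930342, scored 6.43 and 6.91, in an L2 element. The stretch of 20 kb upstream of the M start thus held 4 recurring regions, all in the deposited annotation's intron 2 of 9 of a longer MITF transcript. It also held 2 summits seen only in replicate 1 and 1 seen only in replicate 2. The promoter summits themselves were of middling rank, with scores of 17.5 and 27.0 (top 38.9% and 30.9%). In both lists the promoter therefore ranked below the 3 strong upstream regions. In exon 3 of 10 of NM_006722, a region at 69938028 and 69937995 scored 13.7 and 12.1, some 1428 bp downstream of the M start in replicate 1.

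**Figure D2:**
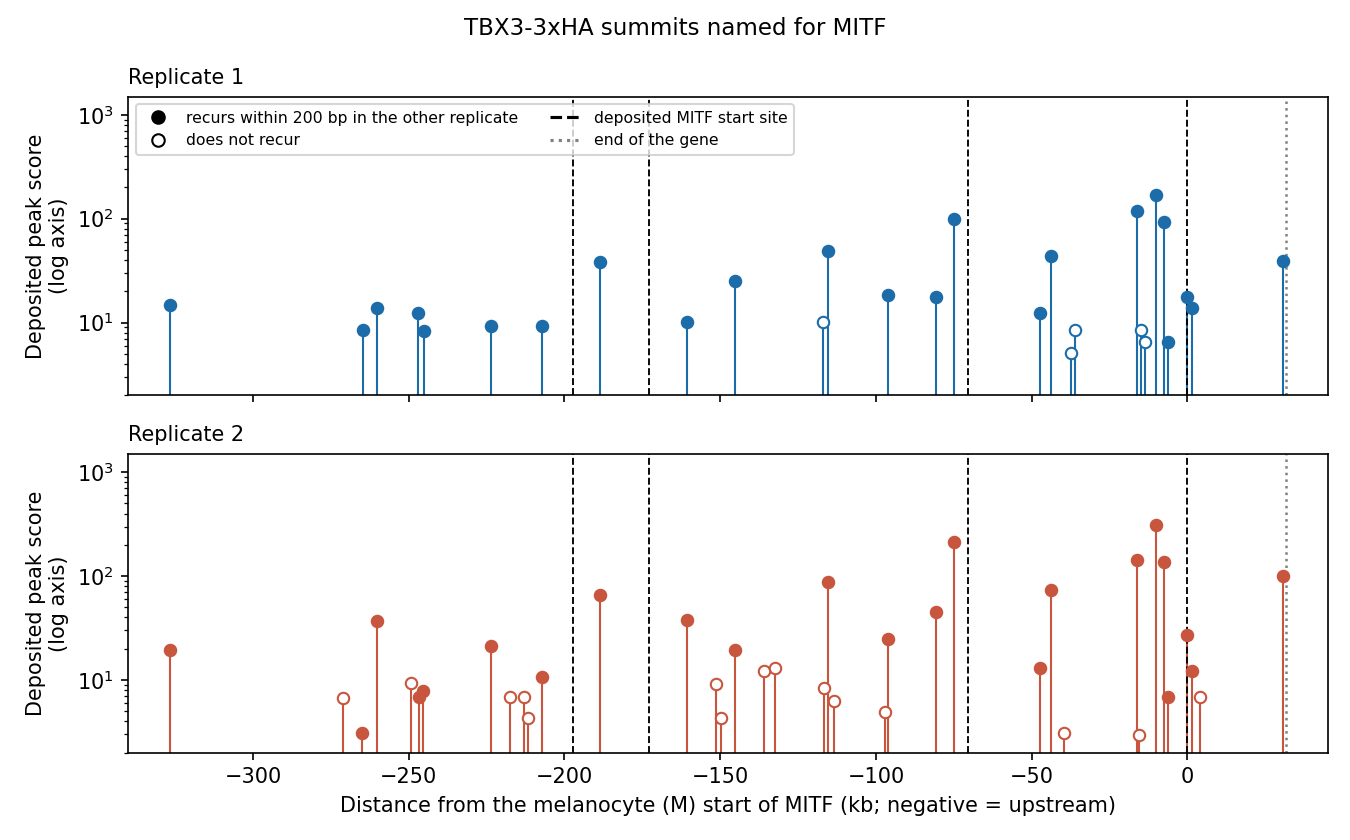
Deposited peak score (log axis) of each summit named for MITF against its distance in kb from the M start, for replicates 1 and 2; filled points recur within 200 bp in the other replicate, open points do not, dashed lines are the 4 deposited starts and the dotted line is the end of the gene. The highest point in both panels lies 9984 bp upstream of the M start in replicate 1, and open points stay at scores of 13.1 or less.

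The other MITF region within the top 10% of both lists lay near another start. It was 4519 bp upstream of the NM_198177 start in replicate 1, in an L2b element. Its summits were 69861705 and 69861730, with scores of 98.9 and 214.0 (top 6.34% and 2.75%). In replicate 2 it was the second highest MITF summit, whereas in replicate 1 it was the third. The last exon held a region at 69967174 and 69967186, in the 3′ UTR and 30574 bp downstream of the M start in replicate 1. It scored 39.5 in replicate 1 (top 18.8%) and 101.3 in replicate 2 (top 8.45%), so it was in the top 10% of replicate 2 only.

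Introns held 8 further recurring regions. That at 69821304 and 69821285 scored 48.5 and 87.7, and that at 69892896 and 69892915 scored 44.0 and 73.3. The region at 69748044 and 69748096, 8609 bp downstream of the first start in replicate 1, scored 38.4 and 65.7. These 3 lay between the top 10.1% and the top 19.3% of their lists. The regions at 69791244 and 69791224 (25.0 and 19.2), 69840419 and 69840480 (18.4 and 25.0), and 69855961 and 69856036 (17.5 and 45.3) lay between the top 19.9% and the top 39.8%. The regions at 69775977 and 69776044 (10.0 and 37.5) and at 69889218 and 69889305 (12.4 and 13.1) completed them. The first of this last pair changed most among the intronic regions, from the top 57.9% in replicate 1 to the top 23.5% in replicate 2.

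The 7 remaining recurring regions were intergenic, all upstream of the first start. Their scores ran from 8.28 to 14.9 in replicate 1 and from 3.11 to 36.9 in replicate 2. The farthest, at 69609816 and 69609847, lay 129619 bp upstream of the first start in replicate 1, in a THE1B-int element, and scored 14.9 and 19.2. The nearest, at 69729401 and 69729469 in an MLT1F element, scored 9.28 and 10.6. At 69689642 and 69689737, in an MSTB1 element, the scores were 12.4 and 6.91. Of the 4 outside repeats, the region at 69676399 and 69676391 scored 13.9 and 36.9, and that at 69713032 and 69713098 scored 9.28 and 21.1. The regions at 69691421 and 69691268 (8.28 and 7.77) and at 69671869 and 69671708 (8.54 and 3.11) had the widest gaps, 153 and 161 bp. The closest MITF summits that were left unpaired were 362 bp apart, at 69819488 and 69819850. None of the 7 was in the top 10% of either list. Of all MITF summits, 7 of 28 in replicate 1 and 12 of 38 in replicate 2 were intergenic, against 53.3% and 52.8% of all peaks. Introns held 18 of 28 and 23 of 38, against 39.4% and 40.7% of all peaks.

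Recurrence of MITF summits was near that of the lists as a whole. In replicate 1, 23 of 28 recurred (82.1%, 95% Wilson interval 64.4% to 92.1%), against 69.9% of all peaks. In replicate 2, 23 of 38 recurred (60.5%, 44.7% to 74.4%), against 56.1%. The intervals cover counting error only. Peaks in the same score deciles recurred in 78.3% of cases in replicate 1 and in 54.7% in replicate 2. Summits in the top 10% numbered 4 of 23 recurring in replicate 1 and 5 of 23 in replicate 2, against 14.1% and 17.6% of all recurring summits. With 23 regions, 1 summit more or less moves these shares by more than their distance from the background.

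The MITF summits that did not recur scored 5.12 to 10.0 for the 5 of replicate 1 and 2.93 to 13.1 for the 15 of replicate 2. The highest were at 69819488 in replicate 1 (10.0), followed by 69900532 and 69921807 (8.54 each), and at 69804144 (13.1) and 69800532 (12.2) in replicate 2. All were in introns. Recurring MITF summits went down to 6.43 in replicate 1 and 3.11 in replicate 2, so the scores overlapped. MITF summits that did not recur had a median rank at the top 64.2% and 73.4% of their lists. For all peaks that did not recur it was 79.2% and 73.3%, so low ranks were common to the lists. Annotated repeats held 7 of the 28 summits in replicate 1 and 14 of the 38 in replicate 2, against 43.3% of all peaks in each list.

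The 2 summits of a MITF region lay a median of 33 bp apart, between 8 and 161 bp, against a median of 28 bp for all 22702 recurring regions. Gaps of up to 50 bp were found in 12 of the 23 MITF regions (52.2%), against 71.4% of all recurring regions. The gap went with the score: the 4 regions in the top 10% of replicate 1 had gaps of 8 to 25 bp, and the 6 below its median score had gaps of 66 to 161 bp. Ranks of the 23 regions in the 2 lists had a Spearman's rho of 0.891, a description of regions from the same pair of libraries, against 0.852 over all recurring regions. In replicate 2, 16 of the 23 ranked higher than in replicate 1 and 7 ranked lower. Over all recurring regions 66.9% ranked higher in the longer replicate 2 list, so this direction was common to the lists.

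**Figure D3:**
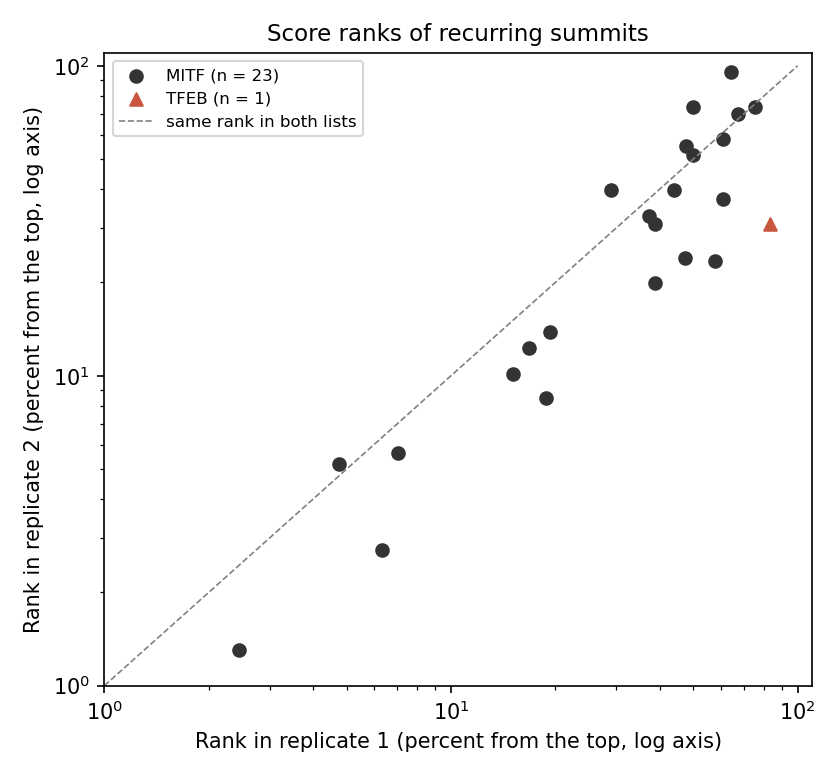
Rank of each recurring region as percent from the top of the replicate 1 list (horizontal) and of the replicate 2 list (vertical), both on log axes; the dashed line marks equal rank. The strongest MITF region, at 2.45% and 1.30%, is lowest left, and the single TFEB region, at 83.0% and 30.9%, lies far from the line.

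MITF had many summits for its length. The RefSeq span of MITF, 69739464 to 69968332 on chromosome 3, held 16 recurring regions in 229.0 kb, or 6.99 per 100 kb. Spans of at least 100 kb (3351 genes) had a median of 0.545 per 100 kb and a 99th percentile of 5.07, and MITF ranked 9 among them. Among 676 protein-coding genes with a span within 20% of that of MITF, the median count was 1, the 95th percentile was 7, and 2.22% had 10 or more. MITF had the highest count of the 676, of which 68.9% had at least 1. Over all protein-coding genes 20.9% had at least 1. Counts above 16 were found in 19 genes, each with a span of at least 276.0 kb. SEMA5A, a semaphorin, led with 53, and JARID2, a Polycomb cofactor, had 22 in a span of 276.0 kb. JARID2 was denser than MITF, at 7.97 per 100 kb, and fell just outside the 676, whose longest span was 274382 bp. The first place of MITF therefore holds for this range of spans, and no other range was tried. Of the 22 genes with a count of 16 or more, 5 were on chromosome 5, SEMA5A among them. These values are descriptions, since no test between genes was made.

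The density was not limited to the gene. The 100 kb before the span held 6 recurring regions and the 100 kb after it held 5, against 0.809 per 100 kb over chromosome 3. From 100 to 300 kb before the span there were 6 regions in 200 kb, and from 100 to 300 kb after it there were 0. With the inputs not analysed here, no background level could be set beside these counts.

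**Figure D4:**
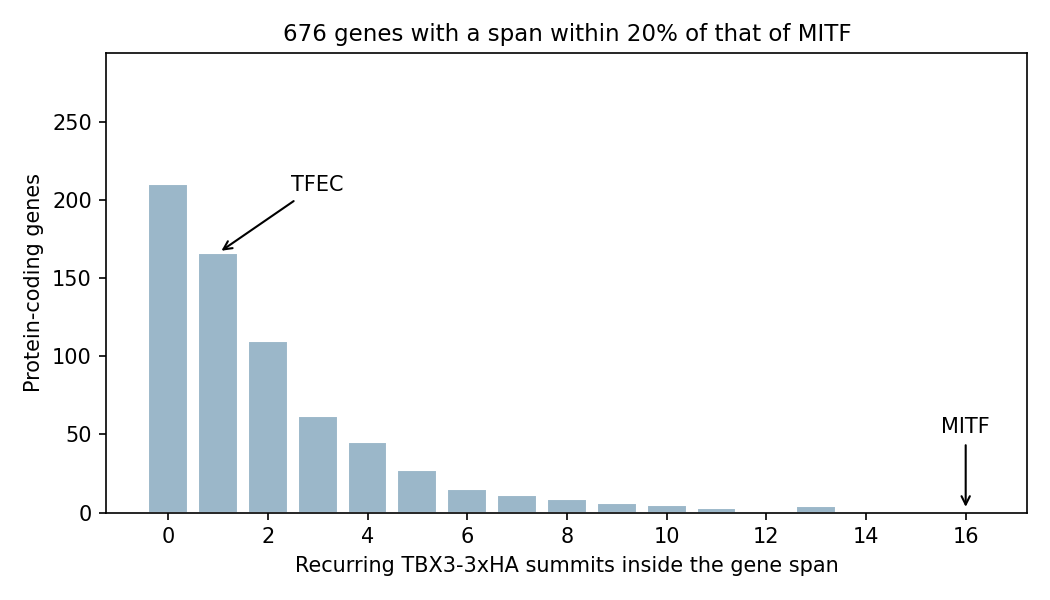
Distribution of the number of recurring TBX3-3xHA summits inside the gene span (horizontal) over the 676 protein-coding genes with a span within 20% of that of MITF (vertical, number of genes). MITF is the single gene at 16, and TFEC, whose RefSeq span is nearly as long, is at 1.

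TFEC is the closest match to MITF in length of RefSeq span within the family, at 225.0 kb on chromosome 7 (115935152 to 116159896). Its single named summit, at 115891298 in replicate 2, scored 4.90, did not recur, lay in an L1PA7 element and was 43.9 kb outside the span. Inside the span both lists had a strong summit, at 116139329 in replicate 1 (score 80.4, top 8.39%) and 116139328 in replicate 2 (score 147.3, top 5.02%). The deposited annotation called it intergenic and named it for TES, 71164 bp upstream of that gene's start in replicate 1. Naming by the nearest start therefore left TFEC with no recurring region, whereas the RefSeq span gave it 1, or 0.445 per 100 kb. The nearest TFEC start with a RefSeq promoter window, at 116030763, was 108566 bp from this summit in replicate 1. The span runs past that start to 116159896, so the region inside it and the length match with MITF depend on this extension.

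TFEB, on chromosome 6 from 41683978 to 41736223, had a recurring region in intron 1 of 8. The summits, at 41720557 in replicate 1 and 41720435 in replicate 2, were 122 bp apart and lay 13844 and 13966 bp downstream of the TFEB start at 41734401. Their ranks differed widely, with a score of 5.51 in replicate 1 (top 83.0%) and 27.0 in replicate 2 (top 30.9%). The region was lost when summits had to lie within 100 bp or when both scores had to reach the median of their list.

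Replicate 2 alone had a summit at the TFEB promoter, at 41734330, 71 bp downstream of the start of NM_001271945. Its score of 49.1 (top 18.6%) was the highest of any member summit without a partner. In that score decile of replicate 2, 96.5% of 4094 peaks recurred, and this was 1 of the 142 that did not. The nearest summit of replicate 1 was 13.8 kb away. None of the 3 RefSeq windows of TFEB held the T-box core, the cAMP response element or the E-box CACGTG. The summit lay 22 bases past the end of the nearest of these windows.

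TFE3, a short gene of 14.6 kb on the X chromosome (49028726 to 49043357), had no summit named for it and none within its span. The nearest recurring summits, at 49112080 and 49112013, were 68.7 kb away and named for WDR45, with scores of 29.0 and 31.1. Within 100 kb of a span there were 27 recurring regions for MITF, 4 for TFEC, 2 for TFEB and 1 for TFE3. These windows differ in length, with spans of 229.0, 225.0, 52.2 and 14.6 kb in that order. No such count over all genes is set beside them. A recurring summit within 10 kb of a start was found for MITF alone of the 4 genes, and 10.1% of protein-coding genes had one. Within 1 kb it was again MITF alone, against 2.99% of genes.

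Genes most like MITF in their number of recurring regions by deposited name were sought among the 676 of similar span. None came near its 23. The closest were GRB10 and TEAD1 with 15 each, NEDD9 and MYO10 with 14 each, and BMPER with 13. Counted inside the span, TEAD1 had 13, MYO10 had 11, NEDD9 had 10, BMPER had 4 and GRB10 had 3.

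Genes that act on MiT/TFE factors, and other factors with the same type of domain, were read in 4 lists of 63 genes. Within 10 kb of a start, 7 of the 63 had a recurring summit (11.1%), near the 10.1% of all protein-coding genes. Among regulators upstream of MITF it was 4 of 16: MC1R, SOX10, ZEB2 and BHLHE40. At SOX10, a neural crest factor that activates the M promoter, summits at 37985860 and 37985864 on chromosome 22 lay 1328 bp upstream of a start and scored 53.0 and 98.6. At ZEB2, a zinc finger factor of the melanocyte lineage, summits at 144520268 and 144520281 on chromosome 2 were 123 bp downstream of a start and scored 114.4 and 166.4. At BHLHE40, a transcriptional repressor, promoter summits at 4978639 and 4978607 on chromosome 3 scored 64.3 and 85.0. At MC1R the 5′ UTR summit of both lists scored 168.3 and 170.9.

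Of 20 genes of nutrient signalling to MiT/TFE factors, 2 had such a region. FNIP2, a partner of folliculin, had 3, the strongest at 158810310 and 158810346 on chromosome 4 with scores of 148.6 and 256.6. Of 17 other basic helix-loop-helix leucine zipper factors, MXI1, an antagonist of MYC, had 1, at 110227401 and 110227397 on chromosome 10 with scores of 32.0 and 36.5. Of 10 cofactors and modifiers of MITF, 0 had one.

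The sequences that MiT/TFE proteins recognise were also counted at promoters with a recurring TBX3-3xHA summit. CACGTG was in 17.6% of these 404 windows and in 7.26% of all 35116, and CATGTG, the core of the M-box found in pigment genes, was in 20.0% and 11.1%. With a preceding T, TCACGTG was in 9.16% and 3.71%, and TCATGTG in 8.17% and 2.92%. CAGCTG, an E-box of other factors, was in 22.3% and 17.9%. The T-box form GGTGTNA, which includes GGTGTGA, was in 17.6% and 9.26%. Windows with a summit had a lower median GC content, 53.0% against 58.7%, whose part in these shares was not tested, and some genes have more than 1 window. No window of the 4 family genes held CACGTG or CATGTG. A match describes the letters of the reference sequence and is not evidence of a bound MiT/TFE protein.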

How the data were processed

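Per the file headers, HOMER's annotatePeaks.pl annotated the summit file of each ChIP sample against hg38, so replicates were not pooled. The submitters' processing notes name FastQC 0.11.7, cutadapt 2.8, Bowtie2 2.3.5, MACS2 2.1.2 and SAMtools 1.9, with no roles. The peak threshold and control are not given in the sources used here. The score was deposited by the authors, its scale is not stated, and it was used only within its list. Read depth is unknown. Each summit is a single base.

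Summits were paired as mutual nearest neighbours within 200 bp. Gene, distance and annotation class are the deposited ones. Of 12468 gene identifiers 12420 matched the RefSeq table of GRCh38.p14, and its protein-coding genes on chromosomes 1 to 22 and X served for spans. Promoter sequences are RefSeq windows for all 4 genes. Motifs were searched in these windows because sequence around other summits was not used here. Pairing and motif search were tested on simulated data with widely spaced summits. That test checks the code and does not measure chance pairing in these lists. Every planned comparison was a description with no test. Python 3.11.15 and pandas 2.3.3 were used.

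The members and gene lists were chosen with earlier results of these data known. Named were all recurring member regions, the 3 highest others of each list, the 5 genes nearest to MITF in count and listed genes with a region within 10 kb. The values of 1 listed gene are not reported here.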

Additional observations from a re-analysis of the deposited data

How the results depend on the processing

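Of 84 alternatives over 19 results, 53 left the value close to the main one: within 1.5 times for counts, inside the 95% Wilson interval for shares, and within 1 SD of the replicates for ranks and densities. The search of promoter windows for GGTGTGA was itself not planned and stood in for that of summit windows. The 2 other forms of the T-box sequence were applied to promoter windows after seeing the data. Summit windows with a T-box motif were not run, since sequence around other summits was not used here. The cause of changes was not tested. No paired analysis was possible because only 1 of the groups that share replicate numbers was analysed and no result came from a test.

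MITF had 12 recurring regions within 50 bp, 0 at the same base and 14 with scores at or above the median of each list. TFEB had 0 within 50 bp, 0 within 100 bp, 0 at the same base and 0 above the median. TFEC had 1 by its span. Counts from a single list were 28 to 38 for MITF, 1 to 2 for TFEB and 0 to 1 for TFEC. The share of member summits recurring was 82.8% and 58.5% in replicates 1 and 2, and moved to 41.4% and 29.3% within 50 bp. It moved to 77.8% in replicate 2 above the median. The shares over all peaks were 69.9% and 56.1% within 200 bp and were not computed at these other settings. Of the regions paired within 200 bp, 52.2% of those of MITF had gaps up to 50 bp, against 71.4% of all. Within 50 kb of a start, 2 member genes had a recurring summit, against 22.9% of protein-coding genes. All summits of a list gave 9.18 and 11.4 per 100 kb for MITF. For TFEB they gave 1.91 in replicate 1 and 3.83 in replicate 2, against 1.91 from its 1 recurring region. TFEC had 0.409 with 10 kb added on each side.

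For the gene lists, counts within 50 kb were 7 for upstream regulators, 5 for other leucine zipper factors, 1 for cofactors and 16 of 63 in all, against the same 22.9%. Within 1 kb they were 1 for nutrient signalling, 0 for other leucine zipper factors and 4 in all, against 2.99% of protein-coding genes. From a single list they ran from 4 to 6 for upstream regulators, 3 to 3 for nutrient signalling, 2 to 2 for other leucine zipper factors, 0 to 1 for cofactors and 10 to 11 in all. The share of all protein-coding genes from a single list was not computed, so these counts have no background. The 10.1% within 10 kb is for recurring summits. AGGTGTGA was in 0 promoter windows of member genes.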

Other observations

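The genes that flank MITF shared its dense stretch of chromosome 3. SAMMSON, a long non-coding RNA of melanoma that lies downstream of MITF, had 5 recurring regions within 300 kb of the MITF span. The strongest, at 70040550 in replicate 1 and 70040492 in replicate 2, lay 72.2 kb past the end of MITF and 40806 bp downstream of the SAMMSON start in replicate 1. It scored 163.5 and 180.8 (top 2.58% and 3.69%). A region at the SAMMSON start, at 70000084 and 70000015, scored only 2.57 and 7.06.

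On the other side, FRMD4B also had 5 recurring regions within 300 kb of MITF, all upstream of its own start. The strongest, at 69547530 and 69547585, lay 192.0 kb before the MITF span and scored 48.5 and 101.0 (top 15.4% and 8.57%). No summit of either list recurred between 100 and 300 kb past the end of MITF.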
